A study of Mus musculus with 18 samples.

Results

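The genes described here code for proteins of the myelin membrane and its immediate partners: Mbp, Mag, Mog, Mobp, Cnp, Cldn11, Mal, Plekhh1 and Ppp1r14a. They were chosen by name as a list of myelin genes, and a probe set counted for a gene when the platform's annotation gave it that symbol alone. All 9 were found, among 20406 genes measured, and 92 probe sets stand behind them. RNA of the caudal corpus callosum, the rear part of the large fibre tract that joins the hemispheres, was measured in C57BL/6 mice on 18 one-colour arrays. Every mouse received a diet with 0.2% CPZ (cuprizone), a copper chelator under which oligodendrocytes die and myelin is lost. The groups were wild type (WT) with 4 arrays and Trem2 knockout (KO, TREM2-/-) with 3 arrays at the stage called 6 weeks, and WT with 5 and KO with 6 arrays at the stage called 12 weeks. Trem2 codes for a receptor of microglia and other myeloid cells, and the question of the design is how its loss changes the tissue's state under CPZ.

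The labels use the stage both for the age of the mice and beside a protocol that lists several feeding times, so whether 6 and 12 weeks are ages or times on CPZ cannot be told apart here. Mice on plain chow were not analysed here, and no level below can be set against intact white matter. The sources used here do not say which part of Trem2 was removed or whether an array holds 1 mouse or a pool. The p-values therefore speak only of the scatter among these arrays, some of which may be technical.

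Myelin is a sheath of tightly wound membrane that oligodendrocytes wrap around axons, and its genes are switched on together when an oligodendrocyte matures, under transcription factors such as SOX10 and MYRF. MBP glues the cytoplasmic faces of the sheath together, MAG and MOG sit on its inner and outer surfaces, and CNP keeps cytoplasmic channels open in it. In demyelinated tissue these transcripts fall with the loss of oligodendrocytes and return as new ones mature.

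Because the 9 genes varied together from array to array, as described further on, the DNA before their start sites was read for the core motifs of these factors. RefSeq promoter sequences of mouse assembly GRCm38.p6 were matched by symbol for 8 of the 9 genes, with 10 windows of 250 bases that end at the base before an annotated start. Windows of the chromosome that carries Mbp were left out of this match, so Mbp was not searched. The letters searched, on both strands, were ACAAAG and ACAATG, cores bound by SOX proteins, and CTGGCAC, a form of the MYRF motif. No matches overlapped in the windows shown. The Mobp window is shown because it held ACAAAG 6 times, all as CTTTGT on the printed strand, and the Cnp and Mag windows are shown because each held both ACAAAG and CTGGCAC. Capitals mark the matches, and sequences read 5′ to 3′ toward the gene. They lie at chr9:120149492-120149741 on the plus strand for Mobp, chr11:100574689-100574938 on the plus strand for Cnp and chr7:30914923-30915172 on the minus strand for Mag, each directly upstream of an annotated transcript start and, for Mag, the most upstream of its 3 windows.
Mobp: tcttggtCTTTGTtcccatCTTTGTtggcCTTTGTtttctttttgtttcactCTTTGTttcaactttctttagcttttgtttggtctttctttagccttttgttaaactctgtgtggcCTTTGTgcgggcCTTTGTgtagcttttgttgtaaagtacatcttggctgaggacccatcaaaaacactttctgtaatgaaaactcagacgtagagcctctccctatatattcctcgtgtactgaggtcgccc
Cnp: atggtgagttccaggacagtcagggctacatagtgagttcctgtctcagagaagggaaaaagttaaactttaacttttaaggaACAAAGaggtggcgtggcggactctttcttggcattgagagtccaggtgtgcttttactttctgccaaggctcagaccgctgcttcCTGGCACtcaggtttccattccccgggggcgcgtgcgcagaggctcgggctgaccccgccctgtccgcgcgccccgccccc
Mag: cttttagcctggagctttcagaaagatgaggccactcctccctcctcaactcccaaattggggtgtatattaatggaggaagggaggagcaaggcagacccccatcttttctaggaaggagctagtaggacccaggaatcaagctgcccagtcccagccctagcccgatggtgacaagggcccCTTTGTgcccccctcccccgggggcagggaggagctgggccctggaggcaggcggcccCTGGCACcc

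Among 32851 windows of the same length, 16.5% held ACAAAG, 10.7% held ACAATG and 4.19% held CTGGCAC. Of the 8 genes with a window, 3 held ACAAAG, 0 held ACAATG and 2 held CTGGCAC. Both ACAAAG and CTGGCAC stood in 227 windows, or 0.691%, and the Mobp window was the only 1 of the 32851 with ACAAAG 6 or more times. The cutoff of 6 is the count of the Mobp window itself, so being the only 1 is a description and no test. A match describes the letters of a window and does not show that a factor binds there.

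Trem2 itself, read as a check of the labels, stood at a mean log2 signal of 7.29 in WT and 5.80 in KO at 6 weeks and at 7.36 and 5.27 at 12 weeks. Its fitted difference was −1.49 at 6 weeks (limma, Benjamini-Hochberg adjusted p = 0.248) and −2.09 at 12 weeks (adjusted p = 0.00252). Array medians lay between 5.26 and 5.41 and no pair of arrays was identical. Differences are given in log2 units with the standard error (SE) of a limma model over 16324 genes, and a gene "passed" at an adjusted p under 0.05. Apart from the members, 21 other genes of mature oligodendrocytes had mean signals from 5.07 to 9.90, all above the level of 3.41 under which genes were not tested, as did all 9 members.

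The main pattern was a lower signal at 12 than at 6 weeks and a wide scatter inside every group. All 9 genes were lower at 12 weeks in both genotypes, with a median log2 difference of −1.81 in WT and −0.86 in KO, where 48.8% and 47.8% of all tested genes were below 0. KO was below WT for 9 of 9 genes at 6 weeks (median −0.62) and for 2 of 9, Mbp and Cnp, at 12 weeks (median 0.22), where 50.4% and 47.6% of all tested genes were below 0. The 9 genes varied together from array to array, so these counts are not 9 separate observations. No member passed in any of these comparisons (limma with Benjamini-Hochberg adjustment). For scale, 0.0429% of all tested genes passed for KO against WT at 6 weeks, 0.441% at 12 weeks, and between the stages 0.0184% in WT and 0.00613% in KO. In bulk tissue, fewer oligodendrocytes and less of a transcript per oligodendrocyte cannot be told apart.

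**Figure D1:**
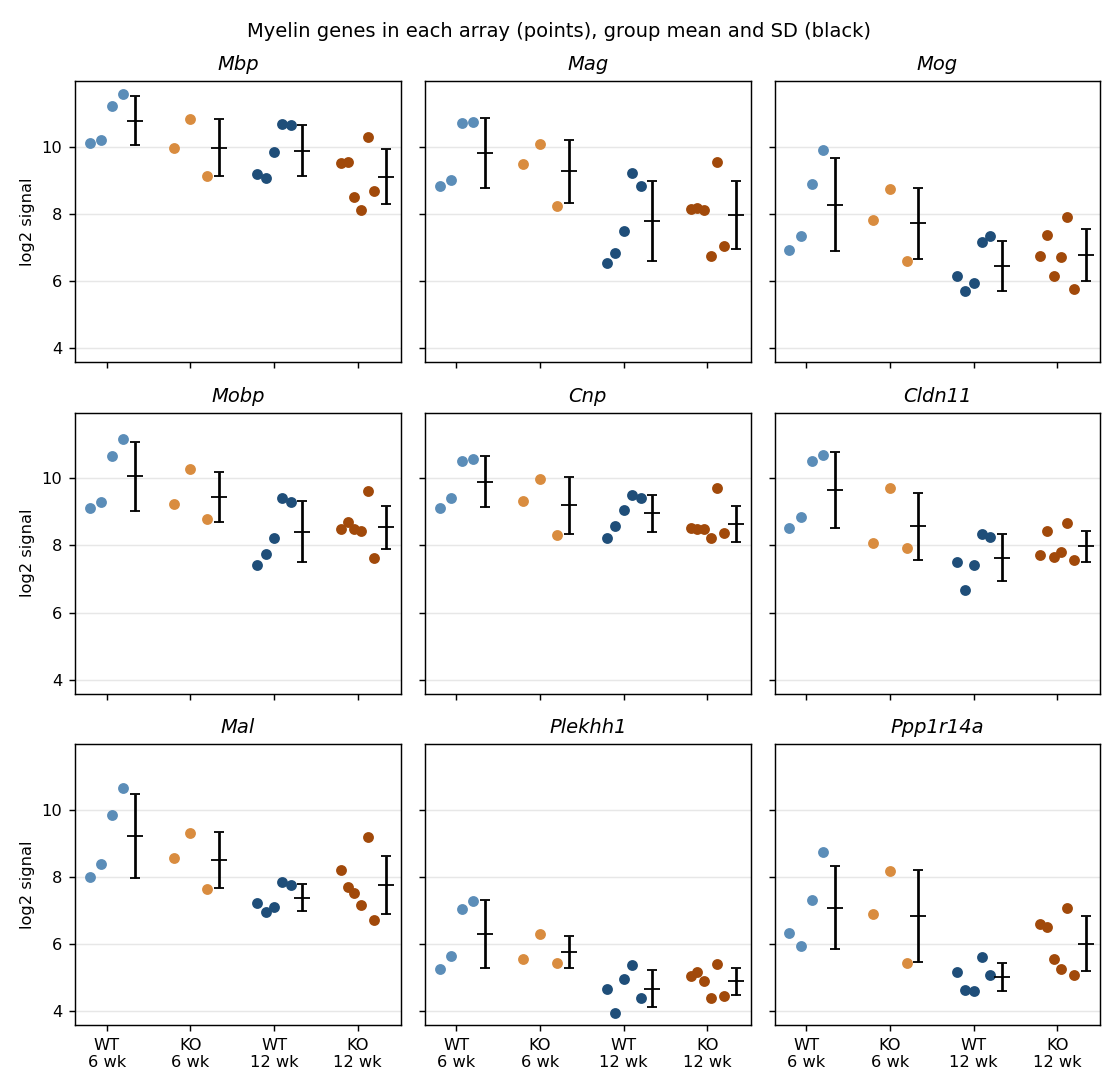
Log2 signal of each of the 9 myelin genes (vertical axis) in the 4 groups (horizontal axis), with 1 point per array and the group mean and SD in black. In every panel the WT arrays of 6 weeks include the highest value of the gene, and the WT and KO points of a stage overlap.

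Mbp and Mobp code for small basic proteins on the cytoplasmic side of compact myelin, MBP being the one that holds adjacent membrane layers together. The log2 signal of Mbp was 10.10, 10.22, 11.22 and 11.58 in the WT arrays of 6 weeks and 9.95, 10.83 and 9.14 in the KO arrays. At 12 weeks it was 9.19, 9.08, 9.85, 10.67 and 10.64 in WT, and in KO it ran from 8.11 to 10.29 with a median of 9.09. The KO arrays reached lower than any WT array at both stages, yet the genotypes overlapped at both. KO differed from WT by −0.81 ± 0.53 (SE) at 6 weeks and by −0.78 ± 0.42 at 12 weeks, with a 95% interval of −1.65 to 0.09 at 12 weeks (limma adjusted p = 0.503). These sizes depended on how Mbp's probe sets were summarised, at −0.31 and −0.24 with their mean and at −0.09 and −0.24 with the brightest. Mbp was the member with the smallest difference between stages in WT, at −0.89 ± 0.46, and its difference in KO was −0.86 ± 0.49.

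Mobp stood at 9.11, 9.29, 10.68 and 11.19 in WT and 9.25, 10.27 and 8.80 in KO at 6 weeks. Its values at 12 weeks were 7.41, 7.75, 8.21, 9.42 and 9.29 in WT and 7.61 to 9.61, median 8.48, in KO. The 12-week WT arrays split into replicates 4 and 5 near the low 6-week values and replicates 1 to 3 below all of the latter. The stage difference was −1.65 ± 0.49 in WT and −0.89 ± 0.51 in KO. KO differed from WT by −0.62 ± 0.55 at 6 weeks and by 0.13 ± 0.44 at 12 weeks.

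Mal and Cldn11 code for membrane-spanning proteins, MAL being a proteolipid of lipid-rich membrane and claudin-11 the strand protein of the tight junctions between myelin layers. Mal measured 8.0, 8.39, 9.86 and 10.65 in WT and 8.58, 9.32 and 7.65 in KO at 6 weeks, and 7.24, 6.96, 7.10, 7.86 and 7.77 in WT at 12 weeks. In KO at 12 weeks it ran from 6.72 to 9.19 with a median of 7.62. All 5 WT arrays of 12 weeks lay below all 4 of 6 weeks, whereas the KO stages overlapped. The stage difference in WT was −1.84 ± 0.50, 3.58-fold lower (limma adjusted p = 0.284), against −0.77 ± 0.53 in KO. Between genotypes Mal differed by −0.70 ± 0.57 at 6 weeks and by 0.37 ± 0.46 at 12 weeks.

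Cldn11 measured 8.53, 8.85, 10.53 and 10.70 in WT and 8.06, 9.71 and 7.94 in KO at 6 weeks. At 12 weeks the WT arrays read 7.51, 6.67, 7.41, 8.35 and 8.27, and the KO arrays ran from 7.58 to 8.66 with a median of 7.77. Again no 12-week WT array reached the lowest 6-week WT array, and KO replicates 1 and 3 of 6 weeks lay below all WT arrays of that stage while replicate 2 lay among them. The WT stage difference of −2.01 ± 0.46, 4.02-fold lower, had an adjusted p of 0.201 (limma). Cldn11 also had the largest genotype difference of the 9 at 6 weeks, −1.08 ± 0.53 with a 95% interval of −2.18 to 0.02 (limma adjusted p = 0.920), and at 12 weeks the difference was 0.34 ± 0.42. The 6-week difference was −0.83 with the mean of its probe sets and −0.46 with the brightest, where Mal had the largest at −0.75. Its WT stage difference was −1.73 and −1.15 in the same order.

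Mag and Mog code for immunoglobulin-type proteins of the myelin surface, MAG on the innermost layer facing the axon and MOG on the outermost. Mag read 8.82, 9.01, 10.71 and 10.74 in WT and 9.49, 10.08 and 8.23 in KO at 6 weeks, and 6.54, 6.83, 7.48, 9.21 and 8.82 in WT at 12 weeks. In KO at 12 weeks it ran from 6.74 to 9.56, median 8.13. Among the WT arrays of 12 weeks it had the widest scatter of the 9 genes, an SD of 1.19, and its replicate 4 stood above the lower 6-week arrays. The stage difference was −2.05 ± 0.61 in WT, 4.13-fold lower (limma adjusted p = 0.320), and −1.30 ± 0.65 in KO. The genotype differences were −0.55 ± 0.70 at 6 weeks and 0.19 ± 0.55 at 12 weeks.

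Mog was 6.94, 7.33, 8.90 and 9.91 in WT and 7.82, 8.73 and 6.60 in KO at 6 weeks. The values at 12 weeks were 6.14, 5.71, 5.94, 7.17 and 7.34 in WT and 5.77 to 7.90, median 6.73, in KO. Within WT at 6 weeks Mog spanned 2.98 log2 units, a 7.88-fold range and the widest of any member in that group. The stage difference of −1.81 ± 0.57 in WT and −0.94 ± 0.60 in KO was thus set against an SD of 1.39 in the WT arrays of 6 weeks. KO differed from WT by −0.55 ± 0.64 at 6 weeks and by 0.32 ± 0.51 at 12 weeks.

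Cnp codes for the cyclic nucleotide phosphodiesterase of uncompacted myelin and is made before compact myelin appears. Its log2 signal was 9.11, 9.41, 10.50 and 10.58 in WT and 9.32, 9.97 and 8.30 in KO at 6 weeks, and 8.22, 8.57, 9.07, 9.49 and 9.42 in WT at 12 weeks. In KO at 12 weeks it ran from 8.23 to 9.70, median 8.49. There 5 of the 6 KO arrays lay at or below 8.52 and replicate 5 alone stood at 9.70, above every WT array of that stage. Cnp and Mbp had the smallest stage differences in WT, −0.95 ± 0.38 for Cnp, and its difference in KO was −0.56 ± 0.40. The genotype differences were −0.71 ± 0.44 at 6 weeks and −0.32 ± 0.35 at 12 weeks.

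Plekhh1, a PH, MyTH4 and FERM domain protein gene enriched in oligodendrocytes, and Ppp1r14a, the gene of an inhibitor subunit of myosin phosphatase, are less studied in myelin. Plekhh1 was 5.26, 5.63, 7.05 and 7.29 in WT and 5.54, 6.30 and 5.43 in KO at 6 weeks, and 4.66, 3.96, 4.95, 5.39 and 4.40 in WT at 12 weeks. In KO at 12 weeks it ran from 4.41 to 5.40, median 4.97, so that all 6 KO arrays of 12 weeks lay below all 3 of 6 weeks. In WT only replicate 4 of 12 weeks reached above the lowest 6-week array. The stage difference was −1.63 ± 0.38 in WT (limma adjusted p = 0.201) and −0.86 ± 0.40 in KO (adjusted p = 0.659). With the brightest of its probe sets, Plekhh1 turned direction in WT between stages, at 0.04 ± 0.29, and between genotypes at 6 weeks, at 0.49 ± 0.33 against −0.55 ± 0.43 with the median. The same held at 12 weeks, where the genotype difference was 0.22 ± 0.34 with the median and −0.19 ± 0.26 with the brightest.

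Ppp1r14a was 6.34, 5.96, 7.32 and 8.76 in WT and 6.91, 8.18 and 5.45 in KO at 6 weeks. The WT arrays of 12 weeks lay close together at 5.18, 4.63, 4.60, 5.61 and 5.09, all below the 6-week WT arrays, and the KO arrays ran from 5.09 to 7.07 with a median of 6.04. Its WT stage difference was the largest of the 9 at −2.07 ± 0.55, 4.20-fold lower (limma adjusted p = 0.282), against −0.83 ± 0.58 in KO. At 12 weeks KO exceeded WT by 1.00 ± 0.49, the largest positive genotype difference among the members, with a 95% interval of −0.04 to 2.03 (limma adjusted p = 0.467). At 6 weeks the difference was −0.25 ± 0.62.

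Across the list, the comparison of 12 with 6 weeks in WT had 8 of 9 members at an unadjusted p under 0.05, all but Mbp, whereas 4.53% of all tested genes were lower at that level. The members ranked between 26 and 1784 by p among the 16324 genes. Because the members share their highs and lows over the arrays, 8 of 9 is not a count of separate observations. The groups did not overlap for Cldn11, Mal and Ppp1r14a, 3 of 9, against 1.31% of all tested genes that were lower without overlap. In KO the only member under 0.05 unadjusted was Plekhh1, which was also the only one whose KO groups did not overlap, against 2.81% and 1.62% of all tested genes that were lower in these ways. The lowest adjusted p of any member under any setting was 0.0702, for Plekhh1 between WT stages without WT replicate 1 of 6 weeks. Without KO replicate 2 of 6 weeks the KO median became −0.43 in place of −0.86.

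The genotype comparisons depended on single arrays. At 6 weeks the 9 estimates ran from −1.08 to −0.25, and no member was under 0.05 unadjusted, against 2.17% of all genes that were lower at that level. Some were under other settings, 3 of 9 without WT replicate 1 and 3 of 9 without KO replicate 2. With neuron and choroid plexus scores as covariates, described further on, 5 of 9 were, and none passed (lowest limma adjusted p = 0.300). Leaving out WT replicate 4, WT replicate 3 or KO replicate 3 moved the median of −0.62 to −0.25, −0.42 and −0.27, and leaving out WT replicate 1 or KO replicate 2 moved it to −0.97 and −1.06. Between 7 and 9 members were lower over all settings, and Ppp1r14a was at 0.31 without WT replicate 4 and at 0.45 without KO replicate 3. At 12 weeks the estimates ran from −0.78 to 1.00, and again no member was under 0.05 unadjusted, against 11.1% of all genes in either direction. With arrays weighted in the fit 2 members were, and none passed. That median of 0.22 became 0.04 and 0.08 when WT replicate 2 or KO replicate 5 was left out, and 0.38, 0.45 and 0.49 when KO replicate 6, WT replicate 5 or WT replicate 4 was. No member's genotype groups were free of overlap at either stage, against 2.37% of all genes lower without overlap at 6 weeks and 0.766% at 12 weeks.

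**Figure D2:**
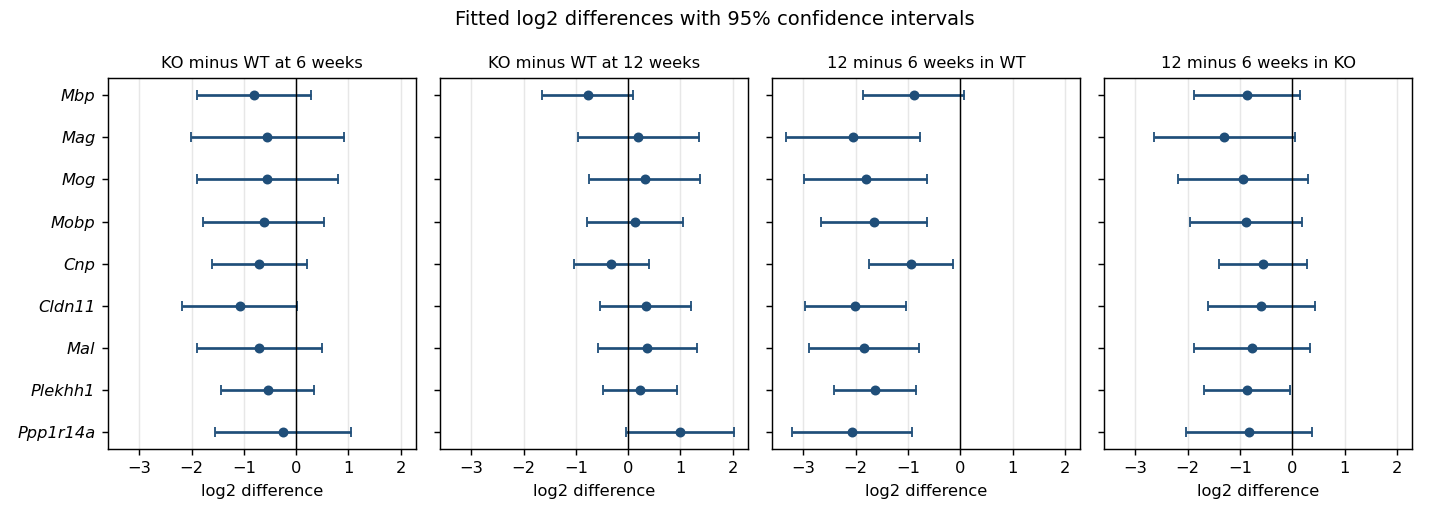
Fitted log2 differences (horizontal axis) of the 9 genes (vertical axis) in 4 comparisons, with 95% confidence intervals from limma as bars. All WT stage estimates lie left of 0, from −2.07 to −0.89, and the intervals of the genotype comparisons all cross 0.

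The genotype by stage interaction asks whether the stage difference was smaller in KO than in WT. All 9 estimates were above 0, where 47.9% of all tested genes were below it, and ran from 0.03 ± 0.67 for Mbp to 1.42 ± 0.67 for Cldn11, with a median of 0.77. Under other settings up to 2 members were below 0. They were Mbp in several of them, Plekhh1 (−0.68) and Mbp (−0.14) with the brightest probe set, and Mbp (−0.39) and Cnp (−0.06) without KO replicate 3 of 6 weeks. The same 4 groups enter the genotype and stage differences, so this is no separate observation. Cldn11 alone was under 0.05 unadjusted (limma adjusted p = 0.918), against 2.88% of all genes that were higher at that level. Its estimate was 1.05 with the mean of its probe sets and 0.46 with the brightest. By limma 0% of all tested genes passed for the interaction, with 379 lower and 470 higher at an unadjusted p under 0.05. The median was 0.44 without WT replicate 4 of 6 weeks and without KO replicate 3 of 6 weeks, and 1.17 without KO replicate 2 of that stage.

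In all 9 genes the group means stood in the order WT at 6 weeks, then KO at 6 weeks, then both 12-week groups. Of the 12-week groups WT was the higher for Mbp and Cnp and KO for the other 7. No neighbouring groups of the same stage differed beyond their spread by the test. For Mbp the means were 10.78 ± 0.73 (SD, n = 4), 9.97 ± 0.85 (n = 3), 9.89 ± 0.76 (n = 5) for WT and 9.11 ± 0.81 (n = 6) for KO, so that KO at 6 weeks and WT at 12 weeks were nearly level. For Ppp1r14a they were 7.09 ± 1.25, 6.85 ± 1.37, 5.02 ± 0.42 and 6.02 ± 0.82 in the same order of groups.

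The scatter within groups was itself large. The median SD of the 9 genes was 1.05 in WT and 0.85 in KO at 6 weeks and 0.69 and 0.78 at 12 weeks, against 0.35, 0.32, 0.32 and 0.32 for the median of all tested genes. In WT at 6 weeks 90.3% to 99.1% of all tested genes had a smaller SD than a given member. Within 1 group the highest array exceeded the lowest by 2.77- to 7.88-fold in WT and 1.83- to 6.65-fold in KO at 6 weeks. At 12 weeks these ranges were 1.87- to 6.38-fold and 1.99- to 7.06-fold.

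The same arrays were high or low for nearly all members. In WT at 6 weeks replicate 4 was the highest for 9 of 9 genes, replicate 3 came next for all 9, and replicate 1 was the lowest for 8. In KO at 6 weeks replicate 2 was the highest and replicate 3 the lowest for all 9. At 12 weeks replicate 4 of WT was the highest for 8 of 9, replicate 5 of KO was the highest for 9 of 9, and replicates 4 and 6 of KO shared the lowest places, with 4 and 5 genes.

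**Figure D3:**
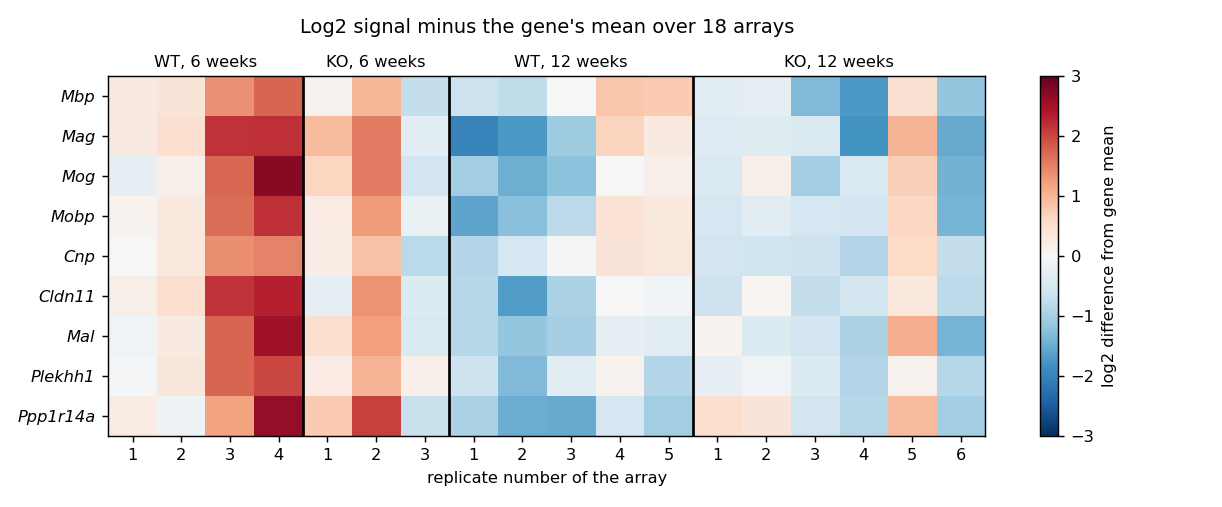
Log2 signal of each gene minus its mean over 18 arrays (colour, red above and blue below the gene's mean), with genes in rows and arrays in columns, ordered by group and replicate number. Replicates 3 and 4 of WT and replicate 2 of KO at 6 weeks and replicate 5 of KO at 12 weeks are above the mean for every gene. At 12 weeks replicates 1 and 2 of WT and replicates 3, 4 and 6 of KO are below it for every gene. Other columns, such as replicate 4 of WT at 12 weeks, hold both colours.

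Over the 18 arrays, the 36 pairs of members had a median Pearson r of 0.89, from 0.67 to 0.96. With group means taken out the median was 0.87, from 0.77 to 0.94. Every such pair shares its arrays, so that input, tissue cut and amplification of a sample enter both genes, and the values are descriptive. Mobp was the closest to the mean of the other 8 (r = 0.97) and Mbp the least close (r = 0.85, and 0.93 with group means taken out). A score, the mean over members of log2 signal centred on each gene's own mean, ran from 0.08 to 2.21 in WT and from −0.44 to 1.32 in KO at 6 weeks, and from −1.26 to 0.18 and from −1.14 to 0.65 at 12 weeks.

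The 5 other genes most like this score over the 18 arrays were Tmem88b (r = 0.97), Fa2h, the hydroxylase of myelin sphingolipids (0.96), Kif1b, a kinesin motor (0.96), Opalin, an oligodendrocyte membrane glycoprotein (0.96), and Trf, the iron carrier transferrin (0.96). The stage difference in WT was −0.44 for Kif1b, against −1.81 for Tmem88b and −1.62 for Trf. Besides the members, 33 genes reached an r of 0.9. The 5 most opposite were Rab15 (r = −0.89), Dab1 (−0.87), Nsmf (−0.85), Yaf2 (−0.85) and Agap2 (−0.85). These genes were picked by their r over the same 18 arrays and their values support nothing beyond that likeness.

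Some members shifted relative to the rest of the list between genotypes at 12 weeks, which was found after the values were seen and is given without a test. Mbp shifted the most with the median of the probe sets as a gene's value, and Ppp1r14a with their mean or the brightest. The log2 signal of Mbp minus the mean of the other 8 genes was 2.58, 2.70, 3.01, 2.85 and 3.09 in WT at 12 weeks, and 2.07, 1.98, 1.41, 1.27, 1.91 and 2.10 in KO. The KO arrays thus all lay below the WT arrays, with a mean difference of −1.06. At 6 weeks the values were 2.34, 2.23, 1.77 and 1.60 in WT and 1.83, 1.76 and 1.84 in KO, which overlapped, and all were below WT of 12 weeks. Levels of different probes cannot be set against each other, so only the shift of this quantity between arrays can be read. Taken relative to the mean of the 9 members, 0.0735% of all tested genes were lower in KO without overlap at 12 weeks. For a gene that does not vary with the list, this adds the list's own scatter and makes overlap more likely. The share is therefore no like measure for a member, and how rare the Mbp shift is was not tested. When a gene was the mean of its probe sets or its brightest probe set, the difference was −0.45 or −0.36 and the genotypes overlapped, so the pattern rests on the median as summary. Ppp1r14a relative to the other 8 shifted the other way at 12 weeks, by 0.94 with the median, 0.64 with the mean and 1.22 with the brightest probe set, with overlap between genotypes each time. Cnp shifted by −0.55, −0.38 and −0.33 in the same order, also with overlap. Cldn11 relative to the other 8 was lower in KO than in WT at 6 weeks (−0.29 to 0.50 against 0.57 to 1.00). That held for 0.0123% of all genes, a share with the same limit, and Cldn11 too overlapped with both other summaries.

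**Figure D4:**
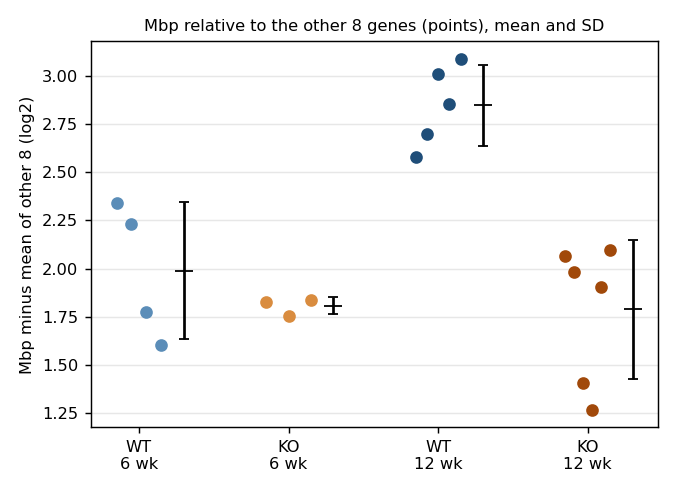
Mbp log2 signal minus the mean of the other 8 myelin genes (vertical axis) in the 4 groups (horizontal axis), with 1 point per array and the mean and SD in black. The 5 WT arrays of 12 weeks lie between 2.58 and 3.09 and the 6 KO arrays of that stage between 1.27 and 2.10.

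The single probe sets differed in how even they were within a gene. Between WT stages 86 of the 92 were lower at 12 weeks, with a median of −1.46, and in KO 86 of 92, with a median of −0.87. For KO against WT 79 of 92 were lower at 6 weeks, and 42 were lower and 50 higher at 12 weeks. All 13 probe sets of Mag, all 7 each of Mobp and Cnp, all 6 of Mog and all 5 of Cldn11 were lower between WT stages. Plekhh1 was the least even, with 30 probe sets whose WT stage differences ran from −3.38 to 0.34 and 9 of which were higher in KO at 6 weeks.

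For Mbp 13 of 15 probe sets were lower between WT stages and 12 of 15 lower in KO at 12 weeks. In KO at 6 weeks the mean and SD of the gene's median, 9.97 and 0.85, were those of a single probe set. The KO minus WT differences of that probe set were −0.96 at 6 weeks and −0.93 at 12 weeks, the latter the lowest of the 15. Probe sets with mean signals of 10.17, 10.24, 10.68 and 10.79 differed by −0.28, −0.39, −0.90 and −0.32 at 12 weeks. How far that probe set sets the Mbp differences was not tested. The 3 brightest Mbp probe sets, with mean log2 signals from 12.24 to 12.38, spanned 1.10 to 1.56 log2 units over the 18 arrays, whereas one with a mean of 8.61 spanned 4.54. Their WT stage differences were −0.39, −0.49 and −0.53. Array background and saturation are not in the values used here.

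**Figure D5:**
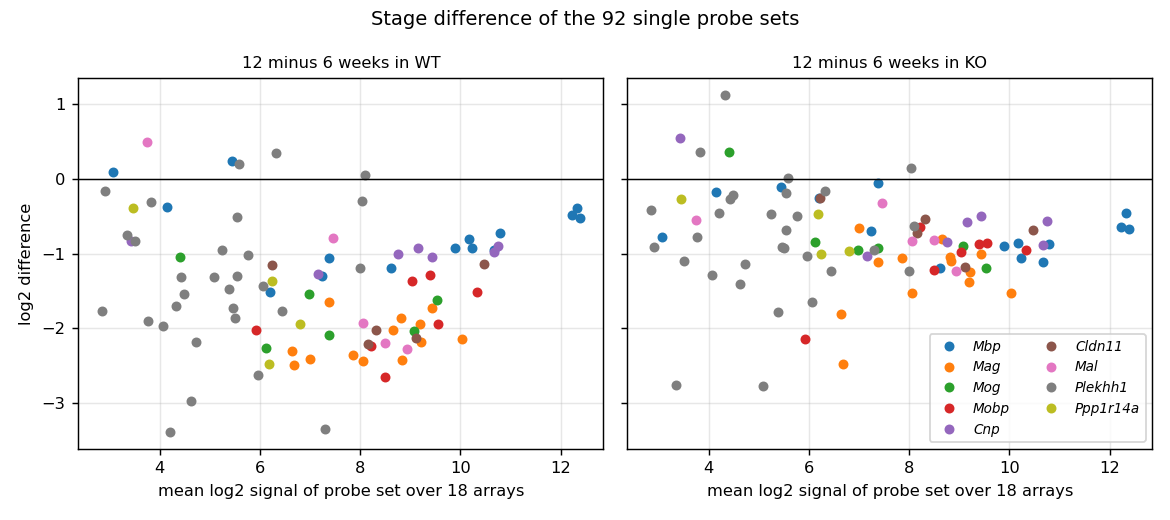
Log2 difference of 12 minus 6 weeks (vertical axis) against the mean log2 signal over 18 arrays (horizontal axis) for the 92 probe sets, coloured by gene, in WT on the left and KO on the right. Most points lie below 0, 86 of 92 in each panel, and the 3 brightest, all of Mbp, lie between −0.53 and −0.39 in WT.

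Other genes of the myelin programme, listed by function, included none that passed in any comparison. The 21 measured genes of mature oligodendrocytes other than the members were all lower at 12 weeks in WT, by a median of −1.15. Of them 18 were at an unadjusted limma p under 0.05, against 4.53% of all tested genes that were lower at that level. In KO 20 of 21 were lower, with a median of −0.74. For genotype their medians were −0.23 at 6 weeks, with 15 of 21 lower, and 0.32 at 12 weeks, with 15 of 21 higher. Beside these and the following lists, 48.8% and 47.8% of all tested genes were below 0 between stages in WT and KO. For genotype, 50.4% and 47.6% were below 0 at 6 and 12 weeks. Tspan2, a tetraspanin of oligodendrocytes, differed by −0.97 ± 0.59 at 6 weeks, and Cd9, another tetraspanin, by 0.68 ± 0.23 at 12 weeks (limma adjusted p = 0.262).

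Of the 10 genes that make or break down myelin sphingolipids, 8 were lower between WT stages (median −0.44) and 7 lower in KO at 6 weeks (median −0.16). Ugt8a, which makes galactosylceramide, differed by −1.95 ± 0.48 between WT stages (limma adjusted p = 0.244) and by −1.35 ± 0.55 between genotypes at 6 weeks (adjusted p = 0.824). Among 11 transcription regulators of the lineage, 10 were lower between WT stages (median −0.58). St18, a zinc finger factor, came nearest to passing there, at −1.61 ± 0.28 (limma adjusted p = 0.0628). Sox10 differed between genotypes by −0.44 ± 0.23 at 12 weeks and Zfp488 by −0.67 ± 0.24 at 6 weeks (limma adjusted p = 0.496 and 0.735).

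Genes of precursors and newly formed oligodendrocytes, 10 in all, had medians between −0.26 and −0.19 in the 4 comparisons. Enpp6, an enzyme gene of newly formed oligodendrocytes, differed by −1.27 ± 0.47 between genotypes at 6 weeks (limma adjusted p = 0.753). Ptprz1, expressed in precursors and also in astrocytes, differed by 0.56 ± 0.20 at 6 weeks and 0.42 ± 0.16 at 12 weeks (limma adjusted p = 0.723 and 0.314). Of 6 Schwann cell genes, whose myelin shares several members of the list, 4 were measured and 3 tested, with none passing and medians from −0.40 to −0.18. The highest of the 4 mean signals was 6.78 and the lowest 2.70, under the level for testing.

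Scores of the 4 oligodendrocyte lists followed the member score over the 18 arrays, and that of the Schwann cell genes did so less closely. Pearson r was 0.97 for the other genes of mature oligodendrocytes, 0.95 for the regulators, 0.92 for the sphingolipid genes and 0.78 for precursor genes, against 0.30 for Schwann cell genes (0.06 with group means taken out). The scores come from the same arrays and carry whatever those arrays share.

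Markers of other cell types also varied with these arrays. All 11 measured neuron genes had mean signals between 7.22 and 10.62, none at or near the lower limit, and their score had an r of −0.74 with the member score (rho = −0.49, and r = −0.60 without the 2 arrays farthest from the median). The neuron score ran from −1.34 to 0.58 in WT and from −1.89 to 0.17 in KO at 6 weeks, and from 0.18 to 0.45 and from −0.16 to 0.43 at 12 weeks. The lowest neuron scores, −1.34 and −1.89, were those of WT replicate 4 and KO replicate 2 of 6 weeks, which had the highest member values of their groups. Between stages 10 of 11 neuron genes were higher at 12 weeks in WT (median 0.52) and 11 of 11 in KO (median 0.73), none passing.

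The 9 choroid plexus and ependyma genes had a score of 2.58 in WT replicate 4 of 6 weeks, the highest of all arrays, and ran from −1.43 to 1.56 at 12 weeks. The r of this score with the member score was 0.47 (rho = 0.29, and r = 0.53 with group means taken out). Between genotypes all 9 genes were higher in KO at 12 weeks (median 1.02) and 4 were at 6 weeks, none passing. With the scores of neuron genes and of this list as covariates, the member medians between stages were −1.19 in WT and −0.31 in KO, in place of −1.81 and −0.86. They were −0.83 and −0.07 for genotype at 6 and 12 weeks in that fit, with 5 of 9 members lower at 12 weeks. Without WT replicate 4 and KO replicate 2 of 6 weeks together the medians were −0.65 and 0.22 for genotype and −1.30 and −0.43 for stage. The part of neighbouring tissue in the stage and genotype differences was not tested further.

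Other cell types did not follow the member score closely. Its r was 0.05 with 11 microglia genes, 0.26 with 10 genes of disease-associated microglia, 0.11 with 9 astrocyte genes and −0.15 with 5 endothelial genes. The microglia genes, in contrast to the members, included some that passed between genotypes, 1 higher at 6 weeks and 3 higher in KO at 12 weeks, with medians of 1.07 and 1.20. The 10 disease-associated genes were divided, with 7 lower and 3 higher in KO at 6 weeks (median −0.75) and 6 lower and 4 higher at 12 weeks (median −0.07). Of these only Itgax passed, lower in KO at 12 weeks (−2.02 ± 0.41, limma adjusted p = 0.0347). Of the astrocyte genes 1, Slc4a4, passed, higher in KO at 12 weeks (1.01 ± 0.17, adjusted p = 0.0104).

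Sex of the mice, read from Xist and Y-linked genes, divided the genotype values at 6 weeks. Among males, 2 KO arrays against 2 WT arrays, all 9 members were higher in KO, with a median of 0.56. Among females, 1 KO array against 2 WT arrays, all 9 were lower in KO, with a median of −2.49. The 2 female WT arrays are replicates 3 and 4 and the female KO array is replicate 3, so sex cannot be told apart from these single arrays. With sex as a covariate the member median at 6 weeks was −0.65. The difference between sexes was not tested, since 1 group holds 1 array.

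In the order of the deposited samples, the 12-week arrays follow as WT, KO, WT and KO. By that order alone they were split here into 2 consecutive runs, each with both genotypes. The labels name neither runs nor batches. In the first, 3 KO against 2 WT arrays, all 9 members were higher in KO, with a median of 0.83 and Mag the highest at 1.47. In the second, 3 against 3, 6 of 9 were lower in KO, with a median of −0.17. Mbp was the lowest of the 9 in both, at 0.05 and −1.36. Within males, 3 against 3, the median was −0.07, and within females, 3 KO against 2 WT, it was 0.87. The first run held male KO and female WT arrays and the second the reverse. Genotype and sex therefore cannot be told apart within a run, nor genotype and run within a sex. With run as a covariate the 12-week median was 0.25.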

How the data were processed

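The deposited values are log2 probe-set signals, between 0.732 and 13.674, for 241576 probe sets on each of 18 arrays. Amplified, biotin-labelled RNA was hybridised, 1 sample per array, per the labels' protocols. The authors' background correction, array normalization and probe summary are not stated in the sources used here, and the log2 values were used as deposited.

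Probe sets with 1 gene symbol in the platform annotation (212097; 4475 had several and 25004 none) were used, and 2688 symbols were updated through RefSeq names of GRCm38.p6. A gene is the median of its probe sets. The 20% of genes with the lowest mean were left out, which left 16324. For Plekhh1, 1 probe set shared with a neighbouring gene was left out.

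Groups come from the labels' genotype and stage. One limma model (3.58.1, R 4.3.3) with 4 group means gave all differences, two-sided, with Benjamini-Hochberg adjustment over all tested genes and 14 residual and 5.61 prior degrees of freedom. The number of arrays sets the precision. The members, the other lists, the named genes (up to 2 per list with the smallest p, and the 5 most and least like the score) and the alternatives were chosen with earlier results of these data known. Alternatives covered filter, normalization, probe summary, spread estimate, arrays in the fit, replicate number, run, sex, tissue scores, threshold and each array left out. Same-numbered arrays of different groups did not deviate together (22 pairs, median r = 0.04, 3 over 0.1), so the numbers were not taken to pair samples.

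On simulated data with 16324 genes, of 100 genes changed by a log2 of 1 and 100 by 2, the fit called 37 and 91 for KO against WT at 6 weeks, and 61 and 98 at 12 weeks. Between stages it called 56 and 97 in WT and 45 and 95 in KO, and 16 and 77 were called as interaction. Unchanged genes called numbered 13, 14, 9, 7 and 10 in the same order of comparisons. The simulated noise was independent between genes, which the members' values are not. The changed genes were drawn at random from all tested genes, each with its own SD. The members' median SD within groups was 0.85, against 0.32 to 0.35 for all tested genes, so these recoveries are not those of the members. Figures were drawn with Python 3.11.15 and matplotlib 3.10.9.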

Additional observations from a re-analysis of the deposited data

Results flagged for a closer look

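Cnp in KO replicate 5 of 12 weeks, at a log2 signal of 9.70, lay far from the other arrays of its group, with the gap to its nearest neighbour making up 0.803 of the group's range. It was 1 of 27 member and group combinations examined in this way, and chance alone marks about 1 in 20. The same array was the highest of its group for all 9 genes.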

How the results depend on the processing

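No member passed under any of the 164 recomputations of the count of members. The median of the members moved by less than the SD within groups, about 0.82, in all 159 of its own, but that SD exceeds the medians for genotype and interaction, so this says nothing about their stability. Leaving out each array in turn gave medians from −1.06 to −0.25 for KO against WT at 6 weeks, 0.04 to 0.49 at 12 weeks, −2.25 to −1.30 for stage in WT, −1.21 to −0.43 for stage in KO and 0.44 to 1.17 for the interaction. The other settings gave −0.83 to −0.42, −0.07 to 0.38, −2.04 to −1.19, −0.96 to −0.31 and 0.46 to 0.86. The 12-week genotype median was thus above or below 0 depending on the setting, at −0.02 with the brightest probe set, where 7 of 9 members were lower. With the replicate number as a replicate block the medians were −0.42, 0.38, −2.04, −0.93 and 0.76, and 0, 20, 0, 2 and 0 genes of all tested passed, against 7, 72, 3, 1 and 0 without it. Over all settings these counts of all genes ran from 0 to 13, 15 to 239, 0 to 9, 0 to 5 and 0 to 1. Chosen after seeing the data, the relative level of Mbp at 12 weeks with the mean of probe sets (−0.45) and with the brightest (−0.36) was smaller than the reported −1.06, and the cause was not tested. Signal over background is not in the values used here.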
